A study of Rattus norvegicus with 6 samples.

Results

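The Cdc42 effector proteins are the proteins that bind the small GTPase Cdc42 in its active state and carry its signal to the cytoskeleton. The members were named by gene symbol, with earlier results of these data known. CDC42EP1, CDC42EP2, CDC42EP3, CDC42EP4 and CDC42EP5 encode the Borg proteins, and CDC42SE1 and CDC42SE2 encode the small effectors of Cdc42. The other members were WASL, IQGAP1 and PAK2. Of these 10 genes, 9 had a row among the 17648 genes of the expression matrix. PAK2, a kinase activated by Cdc42 and Rac, was not analysed here. The mean value was at least 1 in 8 of the 9 genes, and these 8 were among the 8495 genes tested. CDC42EP3 was below that level.

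The study asked how galectin-3 (GAL3, encoded by LGALS3) acts on injured spinal cord neurons and drew attention to CDC42. Neurons were taken from the spinal cord of newborn (neonatal) rats of the Sprague-Dawley strain and kept in culture for 3 days, with the mitosis inhibitor Ara-C, before the injury and RNA sequencing. In the Glu + siR-Con group (3 libraries) the cells received a small interfering RNA (siRNA) without a target, as the transfection control, and in the Glu + siR-GAL3 group (3 libraries) one directed at GAL3. The injury model was 10 μM glutamate for 1 h followed by 16 h without glutamate. The paper and the design text give glutamate for both groups, whereas the sample labels give saline for the Glu + siR-Con libraries and call the transfection of the others a knockout. If the sample labels were right, the effects of glutamate and of the siRNA could not be told apart. The sources do not state whether the 3 libraries of a group came from separate cultures, so the p-values measure only the spread between these libraries.

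Cdc42 switches between a form bound to GDP and a form bound to GTP. Exchange factors load it with GTP, GTPase-activating proteins return it to the GDP form, and GDP-dissociation inhibitors hold it in the cytosol. In the GTP form it binds effectors through a short motif, the CRIB motif, which the Borg proteins, the small effectors, N-WASP and the Pak kinases carry. IQGAP1 binds it through another domain. In neurons and glia this pathway is known for its part in filopodia, neurite outgrowth, cell polarity and process extension.

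The values are on a linear scale that the authors derived from FPKM (fragments scaled to transcript length and library size). Levels of different genes are compared below on these values. Whether the values are still scaled to length after the authors' later correction is unknown. That correction left 3.86% of all values below 0 but none of the values of the members. The depth of the libraries is unknown. Exactly equal values shared between libraries divided them into a first set, made of replicate 1 of either group, a second set, made of siR-GAL3 replicate 3 with replicates 2 and 3 of siR-Con, and a library on its own, siR-GAL3 replicate 2. Values of a group are listed below in the order of replicates 1, 2 and 3. That library also stood apart on the first principal component, which held 65.22% of the variance, with a score of 27.88 against -8.52 to -1.94 in the others. Results that rest on it are therefore given with and without it.

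The targeted gene LGALS3 was lower in the siR-GAL3 group. Its values were 77.4, 54.4 and 62.4 in the controls, the siR-Con libraries, against -1.64, 32.3 and 18.5 after siR-GAL3. The groups did not overlap, and siR-GAL3 replicate 2 kept the highest level of its group. The log2 fold change in limma was -2.91 ± 1.20 (SE), with an adjusted p of 0.571 over all genes tested. The value below 0 in siR-GAL3 replicate 1 was set to 0 for this test. The log2 fold change was -1.35 without that library and -3.88 without siR-GAL3 replicate 2.

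The label of neurons was checked against marker genes. RBFOX3, the marker of mature neurons also known as NeuN, lay between 0.300 and 0.429 in the 6 libraries, and the neurofilament gene NEFL lay between 0.266 and 0.460. Of 17 listed neuron markers 16 had a row and 6 a mean of at least 1, and the highest was MAP2 at 13.1 to 19.0. The astrocyte filament gene GFAP lay between 515 and 758 and the myelin gene MBP between 629 and 919. The data therefore go against a pure neuronal culture, and the values of the effectors are those of a mixture with glial RNA. In such bulk samples fewer cells of a type and less RNA per cell cannot be told apart.

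**Figure D1:**
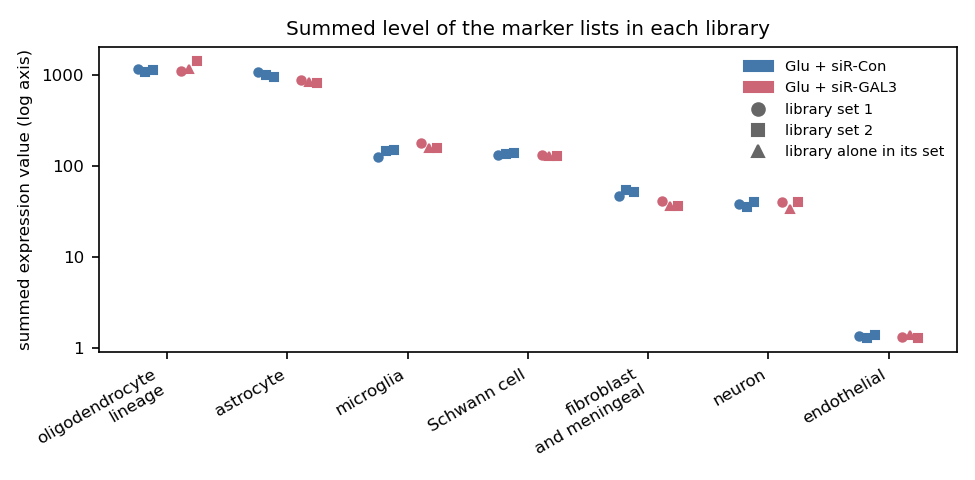
The summed expression value of each marker list (vertical log axis) is plotted for the 6 libraries, coloured by group and shaped by library set. Oligodendrocyte and astrocyte markers sum to at least 811 in every library and neuron markers to between 33.8 and 40.5.

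Some marker lists differed between the groups. The astrocyte markers summed to 937 to 1077 in the siR-Con libraries and 811 to 875 in the siR-GAL3 libraries, and 4 of 10 were lower at an unadjusted p under 0.05. The microglia markers summed to 125 to 149 and 157 to 178, and 6 of the 13 tested were higher. The fibroblast and meningeal markers summed to 46.3 to 54.1 and 36.1 to 40.7, and 4 of the 6 tested were lower. For these lists the sums of the groups did not overlap. The astrocyte sum was mostly GFAP, at 758, 638 and 571 in the controls against 523, 533 and 515 after siR-GAL3. Among the 10 astrocyte markers, 3 had groups without overlap (GFAP, ALDH1L1 and ALDOC), while SLC1A3 and GJA1 had higher means after siR-GAL3. The separation of the astrocyte sums therefore rests on GFAP and does not show a shift of the whole list. The neuron markers summed to 35.1 to 40.2 and 33.8 to 40.5, and the oligodendrocyte markers to 1088 to 1154 and 1098 to 1426. The Schwann cell markers summed to 133 to 140 and 127 to 133, with 1 of 5 lower. That sum was mostly S100B (70.3 to 84.3), which is also on the astrocyte list. SOX10 is shared with the oligodendrocyte list, so the sum is not specific to Schwann cells. The endothelial markers were near 0, summing to 1.29 to 1.40 and 1.28 to 1.39. The part of these shifts in the differences given for the effectors was not tested.

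The 9 members were present at low to moderate levels, each far below CDC42 itself. In the deposited values, CDC42 had a mean of 67.3 over the 6 libraries. That was 8.78 times the mean of the most abundant member, CDC42SE1, and 2.43 times the sum of the 9 member means. The comparison with the sum does not hold for all Cdc42 effectors. PAK2 is left out, and 25 effectors outside the members summed to 67.1 to 68.4 in the siR-Con and 50.8 to 70.8 in the siR-GAL3 libraries. Each of these 25 alone lay below CDC42. CDC42SE1 had a mean of 7.67 and CDC42SE2 of 4.80. WASL followed at 3.94 and CDC42EP4 at 3.84, then IQGAP1 at 2.70, CDC42EP1 at 1.73, CDC42EP5 at 1.37, CDC42EP2 at 1.10 and CDC42EP3 at 0.509. The small effectors thus stood at the top of the order and most of the Borg genes at the bottom, with CDC42EP4 as the exception.

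**Figure D2:**
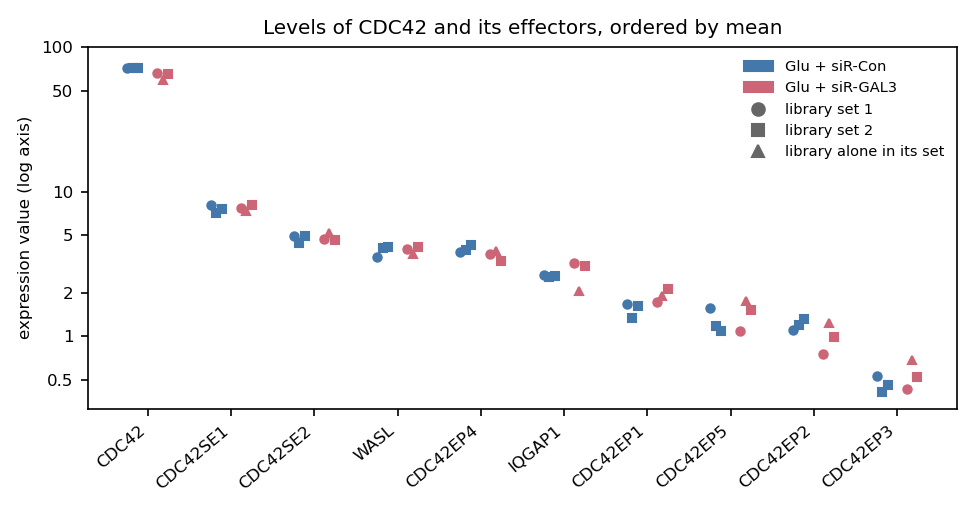
Expression values (vertical log axis) of CDC42 and the 9 effectors in the 6 libraries, ordered by mean, with colour for the group and shape for the library set. CDC42 lies between 59.1 and 71.7, above every effector, and the points of WASL and CDC42EP4 and those of CDC42EP5 and CDC42EP2 overlap.

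Most neighbours in this order kept their places in every library. Of the 8 neighbouring pairs, 6 were in the same order in 6 of 6 libraries, each with an exact two-sided paired permutation p of 0.0312, the smallest that 6 libraries can give, and 0.0417 after adjustment over the 8 pairs. WASL was above CDC42EP4 in 3 of 6 libraries (exact p = 0.594). CDC42EP5 was above CDC42EP2 in 4 of 6 (exact p = 0.125, adjusted 0.143). These 2 pairs could not be ordered beyond their spread. The pairs and their order were taken from the same 6 libraries, so these p-values do not test an order set beforehand.

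The members also differed in how much they varied between libraries. The coefficient of variation over the 6 libraries was 4.58% for CDC42SE1, 5.43% for CDC42SE2, 6.14% for WASL and 8.02% for CDC42EP4. It was 15.0% for IQGAP1, 15.2% for CDC42EP1, 18.2% for CDC42EP2, 19.4% for CDC42EP3 and 21.1% for CDC42EP5. The 4 most abundant members varied least.

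Between the groups, none of the 8 members tested had an unadjusted p under 0.05, beside 736 of the 8495 genes (8.66%). None met the study criteria of an absolute log2 fold change above 1 with an unadjusted P under 0.05, which 27 genes (0.318%) met. The fold change was taken on log2(value + 1), where this criterion asks for more than a doubling. No gene of the matrix had an adjusted p under 0.05 in limma (0%). CDC42EP1 was the only member whose groups did not overlap, beside 1742 genes (20.5%). The values of 6 members were higher and those of 2 lower in the siR-GAL3 group, with a median log2 fold change of 0.01. The median absolute log2 fold change was 0.08 for the members and 0.10 for all genes tested.

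**Figure D3:**
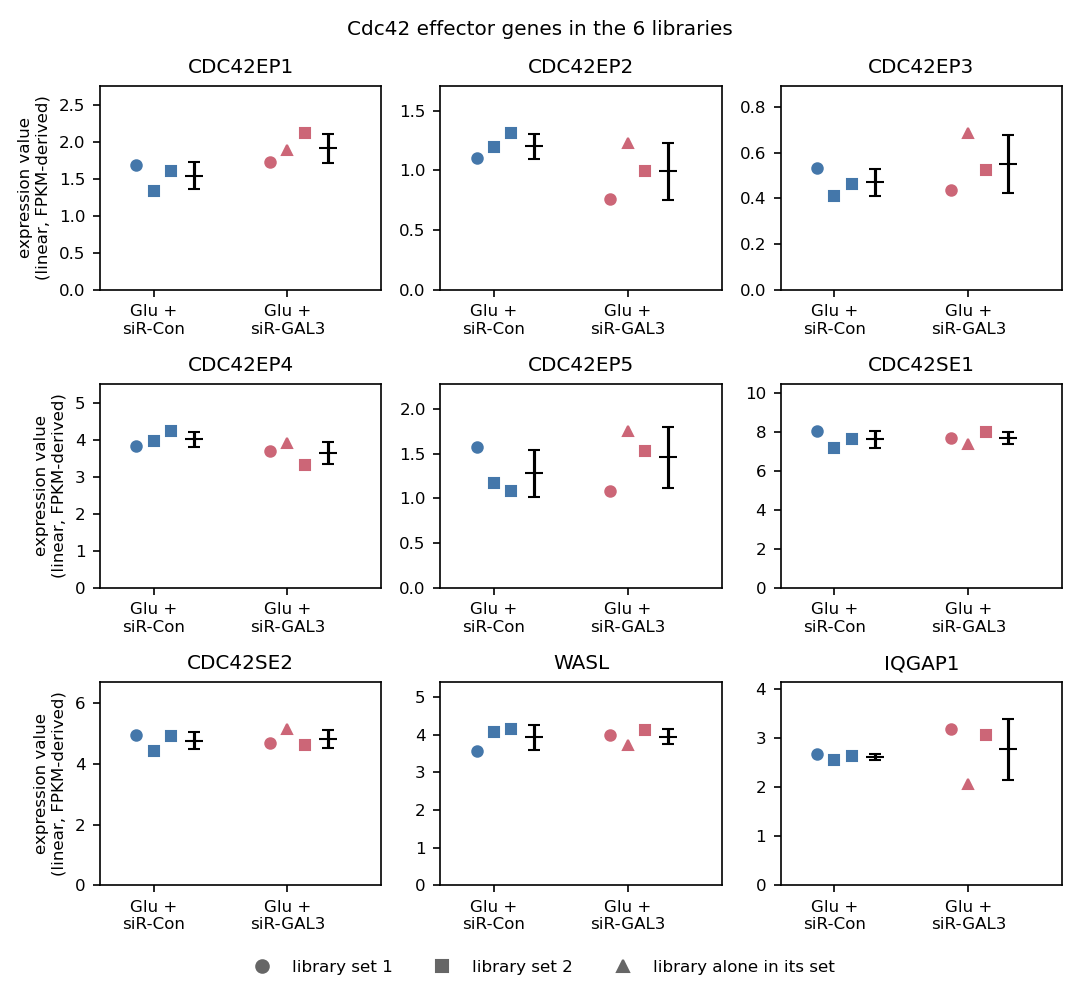
Each panel gives the expression value of one effector on a linear axis from 0, with 1 point per library shaped by library set, and the mean ± SD of the 3 libraries beside each group. The groups are separate in CDC42EP1 alone, by 1.69 against 1.73 at the nearest points, and siR-GAL3 replicate 2 is the lowest IQGAP1 point at 2.06.

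The Borg proteins bind active Cdc42 and septins and are known to organise septin filaments and actin. CDC42EP1, also called Borg5, had values of 1.69, 1.34 and 1.62 in the controls against 1.73, 1.90 and 2.12 after siR-GAL3. All siR-GAL3 libraries were above all siR-Con libraries, though the values of replicate 1 of either group nearly met. The means were 1.55 ± 0.182 and 1.92 ± 0.199 (SD, n = 3 each), a difference of 23.8%. The exact permutation p was 0.1, the smallest that 3 against 3 libraries allow. On the log2(value + 1) scale the difference in limma was 0.19 ± 0.08 (SE; 95% interval -0.00195 to 0.39), with an unadjusted p of 0.0518 and an adjusted p of 0.577. Of all genes tested, 20.4% had a larger absolute difference. CDC42EP1 was 2.47% higher in the siR-GAL3 library of the first set and 43.6% higher in that of the second. Each set holds 1 siR-GAL3 library with 1 or 2 controls, so such values within a set have no test here or below.

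CDC42EP4, or Borg4, was the most abundant Borg gene. Its values were 3.83, 3.98 and 4.26 in the siR-Con libraries and 3.70, 3.91 and 3.33 in the siR-GAL3 libraries. The lowest 2 values belonged to replicates 3 and 1 after siR-GAL3, whereas replicate 2 lay among the controls. The means of 4.02 ± 0.215 and 3.65 ± 0.293 (SD, n = 3 each) differed by -9.29%, with an exact permutation p of 0.2. The log2 difference was -0.11 (95% interval -0.29 to 0.07; adjusted p = 0.609). Against the controls of its own set, the siR-GAL3 library differed by -3.44% in the first set and by -19.0% in the second. Without siR-GAL3 replicate 3 the log2 difference was -0.06.

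CDC42EP2, or Borg1, had values of 1.10, 1.19 and 1.31 in the siR-Con libraries and of 0.756, 1.23 and 0.992 in the siR-GAL3 libraries. Here too replicates 1 and 3 after siR-GAL3 were below every control, and replicate 2 was among them. The means of 1.20 ± 0.105 and 0.992 ± 0.237 (SD, n = 3 each) differed by -17.5% (exact permutation p = 0.3). The log2 difference was -0.15 (95% interval -0.38 to 0.08; adjusted p = 0.604). Within the library sets the difference was -31.4% in the first and -20.8% in the second. Without siR-GAL3 replicate 1 the log2 difference was -0.06.

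CDC42EP5, or Borg3, had the highest coefficient of variation of the members, as given above. It had values of 1.58, 1.17 and 1.08 in the siR-Con libraries and of 1.09, 1.75 and 1.53 in the siR-GAL3 libraries. In either group 2 libraries lay within the range of the other group. The means of 1.28 ± 0.262 and 1.46 ± 0.340 (SD, n = 3 each) gave an exact permutation p of 0.6 and a log2 difference of 0.11 (95% interval -0.19 to 0.40; adjusted p = 0.705). The log2 difference was 0.02 without siR-GAL3 replicate 2 and 0.22 without siR-GAL3 replicate 1. The siR-GAL3 library differed from its controls by -31.1% in the first set and by 35.5% in the second.

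CDC42EP3, or Borg2, ranged from 0.411 to 0.533 in the controls and from 0.436 to 0.686 after siR-GAL3. The groups overlapped and siR-GAL3 replicate 2 was the highest (exact permutation p = 0.5). In a fit without the filter on low values its log2 difference was 0.07, with an adjusted p of 0.715.

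The Borg genes summed to 8.52 ± 0.367 in the siR-Con and 8.57 ± 0.886 in the siR-GAL3 libraries (SD, n = 3 each). Within that sum the share of CDC42EP1 was 18.1% ± 1.39 in the siR-Con and 22.5% ± 2.50 in the siR-GAL3 libraries (SD, n = 3 each), and the groups did not overlap. The share of CDC42EP4 was 43.9% to 49.1% and 39.2% to 48.0%. The ratio of CDC42EP1 to CDC42EP4 was 0.338 to 0.440 and 0.467 to 0.637, so its groups did not overlap. The ratio was chosen after the values were seen. The share and the ratio both reuse the CDC42EP1 values, whose groups already did not overlap, and neither has a test.

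The small effectors CDC42SE1 and CDC42SE2 are short membrane-associated proteins with a CRIB motif. CDC42SE1 had values of 8.07, 7.18 and 7.65 in the siR-Con libraries and of 7.71, 7.39 and 8.04 in the siR-GAL3 libraries. CDC42SE2 had values of 4.95, 4.44 and 4.92 and of 4.70, 5.17 and 4.63. For both genes the groups overlapped. The means differed by 0.965% for CDC42SE1 (exact permutation p = 0.8) and by 1.38% for CDC42SE2 (exact permutation p = 0.9). The 95% intervals of the log2 differences were -0.15 to 0.18 and -0.16 to 0.19. The ratio of CDC42SE1 to CDC42SE2 was 1.55 to 1.63 in the siR-Con and 1.43 to 1.73 in the siR-GAL3 libraries.

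WASL encodes N-WASP, which opens on binding Cdc42 and activates the Arp2/3 complex to nucleate branched actin. Its values were 3.56, 4.07 and 4.16 in the siR-Con libraries and 3.999, 3.73 and 4.13 in the siR-GAL3 libraries. The siR-GAL3 values lay inside the range of the controls. The difference of the means was 0.555% (exact permutation p = 0.9), and the 95% interval of the log2 difference was -0.17 to 0.19.

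IQGAP1 encodes a scaffold that binds active Cdc42 and Rac and crosslinks actin. Its values were 2.68, 2.56 and 2.63 in the siR-Con libraries and 3.19, 2.06 and 3.07 in the siR-GAL3 libraries. The controls were close together, while 2 siR-GAL3 libraries, replicates 1 and 3, lay above all of them and replicate 2 lay below all of them. The means were 2.62 ± 0.0609 and 2.78 ± 0.622 (SD, n = 3 each; exact permutation p = 0.8). The log2 difference was 0.05 ± 0.12 (SE; 95% interval -0.25 to 0.34; adjusted p = 0.867). IQGAP1 was 19.2% higher in the siR-GAL3 library of the first set and 18.4% higher in that of the second.

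The intervals give the range of differences that the spread between these libraries allows. They may be too narrow, since the correction within groups can shrink that spread and separate cultures are not stated. Over the 8 members the 95% intervals of the log2 difference reached from -0.38 to 0.40. A doubling would be a log2 difference of 0.63 for CDC42EP2 and of up to 0.91 for CDC42SE1 on this scale, so a doubling of any of the 8 lay outside its interval.

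Without siR-GAL3 replicate 2 the picture of the members changed. CDC42EP1 and IQGAP1 were then higher and CDC42EP2 and CDC42EP4 lower at an unadjusted p under 0.05, which is 4 of 8 members beside 1388 of 8495 genes (16.3%). The same 4 members had groups that did not overlap, beside 2863 genes (33.7%). The log2 differences were 0.20 for CDC42EP1 (unadjusted p = 0.0408), -0.23 for CDC42EP2 (0.0109), -0.15 for CDC42EP4 (0.0345) and 0.19 for IQGAP1 (0.00422). None had an adjusted p under 0.05, which 167 genes (1.97%) had, and the adjusted p-values of these 4 were 0.284, 0.160, 0.265 and 0.103. Over all alternatives tried the adjusted p of IQGAP1 ranged from 0.103 to 0.957 and that of CDC42EP2 from 0.160 to 0.874. The standard error of IQGAP1 was 0.12 with all libraries and 0.05 without this library.

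In a fit with the library set as a block, siR-GAL3 replicate 2 is alone in its set and adds nothing to the group difference. This fit therefore rests on the same libraries as the fit without siR-GAL3 replicate 2 and is not a separate check. In it, CDC42EP2 and IQGAP1 had an unadjusted p under 0.05, beside 1174 genes (13.8%). The log2 differences were -0.21 for CDC42EP2 (adjusted p = 0.186) and 0.18 for IQGAP1 (adjusted p = 0.211). In that fit 106 genes (1.25%) had an adjusted p under 0.05, and no member was among them. Without siR-GAL3 replicate 1 only CDC42EP1 had an unadjusted p under 0.05 (0.0368), beside 1249 genes (14.7%). CDC42EP5, CDC42SE1, CDC42SE2 and WASL did not reach it in any fit.

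**Figure D4:**
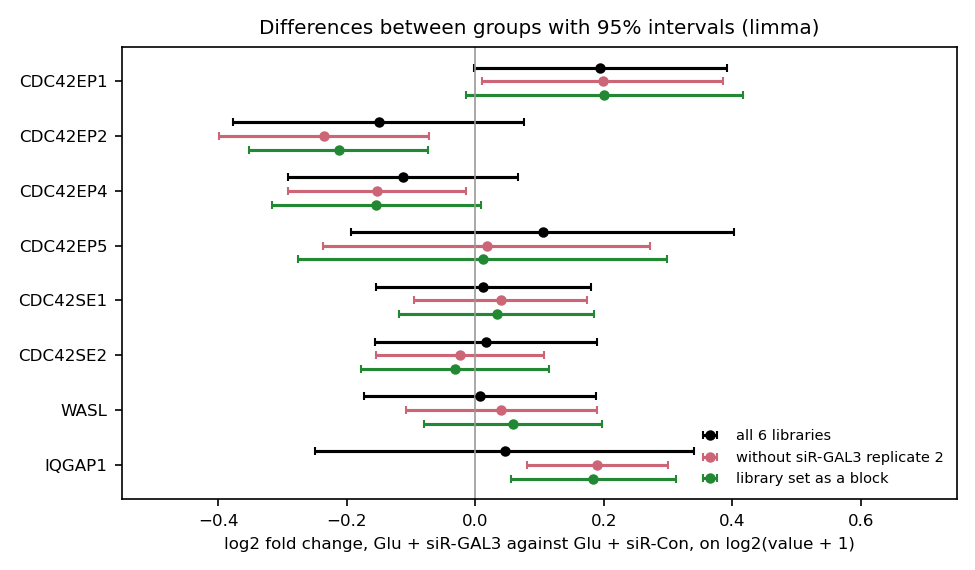
Log2 fold changes on log2(value + 1) of the 8 members tested (horizontal axis, siR-GAL3 against siR-Con) with 95% intervals from limma, for all libraries, without siR-GAL3 replicate 2, and in a fit that takes the library set as a block. With all libraries every interval includes 0, and without siR-GAL3 replicate 2 the intervals of CDC42EP1, CDC42EP2, CDC42EP4 and IQGAP1 do not. In the block fit siR-GAL3 replicate 2 is alone in its set and adds nothing to the difference.

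CDC42, the GTPase that all members bind, was lower in the siR-GAL3 group. Its values were 71.2, 71.7 and 71.1 in the siR-Con libraries and 65.7, 59.1 and 65.2 in the siR-GAL3 libraries. The groups did not overlap and siR-GAL3 replicate 2 was the lowest. The log2 fold change was -0.17 ± 0.07 (SE), with an unadjusted p of 0.0448 and an adjusted p of 0.568. Without siR-GAL3 replicate 2 it was -0.12, and over all alternatives tried its unadjusted p ranged from 0.00712 to 0.120. The summed value of the 9 effectors was 27.5 ± 0.983 in the siR-Con and 27.8 ± 0.540 in the siR-GAL3 libraries (SD, n = 3 each).

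The rest of the pathway was described with 7 lists of 97 genes, of which 94 had a row and 68 were tested. At an unadjusted p under 0.05, 9 were higher and 3 lower in the siR-GAL3 group, which is 17.6% of those tested beside 8.66% of all genes. The lists are described one by one below, except for 1 of them, from which CDC42 and RAC2 alone are given. The groups did not overlap in 20 of the 68 (29.4%, beside 20.5% of all genes). None had an adjusted p under 0.05 in limma with all libraries. The median log2 fold change was -0.07 over the 68 genes and -1.19e-05 over all genes. Without siR-GAL3 replicate 2 the median went from -0.07 to 0.00 for the other effectors, from -0.10 to -0.01 for the septins and from -0.05 to 0.05 for the exchange factors.

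RAC2, the Rac protein of blood and immune cells, had values of 4.99, 5.72 and 5.26 in the siR-Con and 7.68, 8.26 and 7.13 in the siR-GAL3 libraries. Its groups were well separated (log2 fold change 0.46 ± 0.08 SE; adjusted p = 0.149).

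Among 14 other Cdc42 effectors tested, 2 were higher and 1 lower. FMNL1, a formin of blood cells, had a mean of 0.864 ± 0.0680 in the siR-Con and 1.29 ± 0.194 in the siR-GAL3 libraries (SD, n = 3 each; log2 fold change 0.29, adjusted p = 0.333). PAK1, a kinase of the same family as PAK2, had means of 1.99 ± 0.117 and 2.40 ± 0.232 (SD, n = 3 each; 0.19, adjusted p = 0.551). FNBP1L, or Toca-1, a membrane-bending partner of N-WASP, had means of 4.68 ± 0.210 and 3.69 ± 0.554 (SD, n = 3 each; -0.28, adjusted p = 0.516). Among relatives of the members, WAS, the blood-cell counterpart of WASL, had means of 0.752 and 1.09, and IQGAP2 had means of 1.08 and 1.07. WAS had a mean below the filter and was not tested, though its groups did not overlap (0.678 to 0.850 against 1.06 to 1.16). No gene of the 10 tested partners of N-WASP and Pak had an unadjusted p under 0.05.

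Septins are the filament proteins that the Borg proteins bind, and 2 of the 8 tested had an unadjusted p under 0.05, in opposite directions. SEPTIN11 had values of 27.8, 29.3 and 30.6 in the siR-Con and 22.6, 16.7 and 22.0 in the siR-GAL3 libraries. All siR-GAL3 values were below all controls (log2 fold change -0.51 ± 0.12 SE; adjusted p = 0.267). SEPTIN4, which is abundant in glia, had means of 29.4 ± 1.99 and 36.2 ± 4.15 (SD, n = 3 each; log2 fold change 0.29, adjusted p = 0.507). SEPTIN7, the core subunit of septin filaments, had means of 32.1 ± 1.40 and 33.8 ± 2.36 (SD, n = 3 each; 0.07, adjusted p = 0.693).

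Of the regulators of the GTP cycle, 2 of 12 exchange factors were higher. VAV1, the exchange factor of blood cells, had a log2 fold change of 0.18 (adjusted p = 0.535) and FGD2 one of 0.14 (adjusted p = 0.564). None of 12 GTPase-activating proteins had an unadjusted p under 0.05, but 11 had lower means, with a median log2 fold change of -0.19. This rested on siR-GAL3 replicate 2, in which the list summed to 30.9 against 47.8 to 53.3 in the other libraries, and without it the median was 0.01. Of the GDP-dissociation inhibitors, ARHGDIB, the form of blood cells, had means of 2.08 ± 0.0999 and 3.30 ± 0.232 (SD, n = 3 each), with a log2 fold change of 0.48 ± 0.07 (SE; adjusted p = 0.109). ARHGDIA, the widespread form, had means of 39.8 ± 1.57 and 39.5 ± 3.39 (SD, n = 3 each).

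Without siR-GAL3 replicate 2, RAC2, FMNL1, SEPTIN11 and ARHGDIB had adjusted p-values of 0.0243, 0.0241, 0.0242 and 0.0138 in limma, beside 1.97% of all genes under 0.05. Over all alternatives the adjusted p reached up to 0.694 for RAC2, 0.874 for FMNL1 and SEPTIN11 and 0.557 for ARHGDIB. With the library set as a block, where siR-GAL3 replicate 2 again adds nothing, the adjusted p of SEPTIN11 (0.0494) and ARHGDIB (0.0243) was under 0.05. RAC2, FMNL1, VAV1 and ARHGDIB, which are 4 of the 9 pathway genes that were higher with all libraries, are best known from blood and immune cells, and the microglia markers were higher in the same libraries, as given above. The part of the microglia markers in these differences was not tested.

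**Figure D5:**
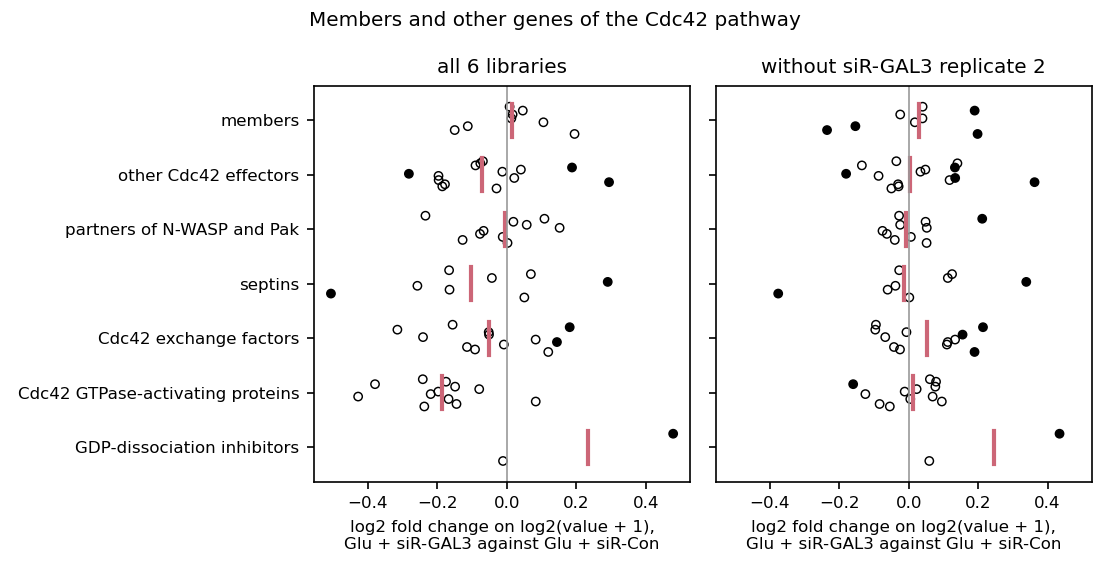
Log2 fold changes on log2(value + 1) of the members and of 6 pathway lists (horizontal axis, siR-GAL3 against siR-Con), with 1 point per gene, filled where the unadjusted limma p is under 0.05, and a red bar at the median of each list. The median of the GTPase-activating proteins moves from -0.19 with all libraries to 0.01 without siR-GAL3 replicate 2, and no member is filled with all libraries.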

How the data were processed

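According to the paper and its supplement, the authors aligned reads with STAR, counted them per gene with HTSeq and estimated FPKM. Batch effects were then removed, the data standardized and differences within groups corrected, with tools that are not given in the sources used here. The deposited values are other than FPKM after these steps: linear expression values of which 3.86% were below 0. The correction within groups can shrink the spread between replicates, and counts and depth could not be recovered. The genome build is not given in the sources used here, so no coordinates are reported. The labels name depletion of ribosomal RNA and the supplement selection of polyadenylated RNA.

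Values below 0 were set to 0. The log2(value + 1) values of the 8495 genes whose mean over the 6 libraries reached 1 were then compared in limma (version 3.58.1; R 4.3.3), allowing an intensity trend. A fold change on this scale understates that of low genes. The study criteria follow the paper's methods. Its supplement gives DESeq and an adjusted P for sequencing data, a test of counts that was not run. All adjusted p-values were computed with the Benjamini-Hochberg procedure over all genes tested. Exact two-sided permutation tests of single genes used Python 3.11.15 with NumPy 2.4.6 and SciPy 1.17.1. The fit was tested on simulated data with independent noise and steps far larger than the differences of the members. That test does not bear on differences of their size.

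The members, the lists and the library sets were chosen with earlier results of these data known. The genes named are the members, LGALS3, CDC42, up to 5 genes per pathway list with the smallest unadjusted p under 0.05, and, for the 3 members with the smallest p, the 3 genes with the most similar pattern. Cell markers, WAS, IQGAP2, SEPTIN7 and ARHGDIA were named outside this rule, after their values were seen. Some genes that the rule selects are not reported here. Alternatives were another pseudocount (0.1), median-ratio scaling or quantile normalization, no filter or a mean of 5 as the filter, no trend, the replicate number or the library set as a block, genes with values below 0 left out, values not log-transformed, and each library left out in turn. For the lists and the genes that are not members, these were added after seeing the data.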

Additional observations from a re-analysis of the deposited data

How the results depend on the processing

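With 0.1 as the pseudocount, median-ratio scaling, no trend, or genes with values below 0 left out, no member had an unadjusted p under 0.05, as with the original settings. Over the log2 fold changes of the 8 members, 104 alternative values kept their direction and their side of the threshold, 7 kept the direction and passed it, and 10 changed sign. The sign changed for CDC42SE2 in the fit blocked by library set (-0.032) and for WASL with quantile normalization (-0.0025), and otherwise when 1 library was left out. The ranges over the libraries left out were -0.0252 to 0.0493 for CDC42SE1, lowest without siR-Con replicate 2, -0.0256 to 0.0411 for CDC42SE2, -0.0474 to 0.0417 for WASL and -0.037 to 0.19 for IQGAP1. The cause was not tested. Members at an unadjusted p under 0.05 numbered 0 to 4 over the libraries left out, with 1 without siR-GAL3 replicate 1 and 4 without siR-GAL3 replicate 2, and 2 in the fit blocked by library set. Members without overlap numbered 1 to 4, with 2 without siR-Con replicate 1, and 0 with a mean of at least 5, which leaves CDC42SE1 alone of the members. Genes at an unadjusted p under 0.05 numbered 1623 without a filter, 260 with a mean of at least 5, 1174 blocked by library set and 344 to 1388 over the libraries left out. They numbered 350 without siR-Con replicate 2, 344 without siR-Con replicate 3 and 1249 without siR-GAL3 replicate 1. Genes that met the study criteria numbered 6 with a mean of at least 5, 15 with genes below 0 left out and a linear difference above 1, which is another criterion, was met by 367 with values not log-transformed. Pathway genes at an unadjusted p under 0.05 numbered 6 with a mean of at least 5 and 4 to 17 over the libraries left out, with 4 without siR-Con replicate 2 or 3 and 6 without siR-GAL3 replicate 3. For the named genes that are not members, 151 values kept their side of the threshold and 50 no longer passed it. The deviations of same-numbered libraries from their group means had correlations of -0.17, -0.07 and 0.04. The authors' correction could have removed a pairing, so this check cannot decide whether the replicate numbers pair the libraries. Replicates 1 of the groups share a library set, as do replicates 3. With the replicate number as a block, 0 members and 6 pathway genes had an unadjusted p under 0.05. The adjusted p of the members ranged from 0.103 (IQGAP1) to 0.995 (WASL) over all alternatives. The depth is unknown, and 3 libraries a group limit the precision to the intervals given.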

Other observations

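The genes whose pattern over the 6 libraries was most like that of CDC42EP1, by the mean absolute difference of log2(value + 1) after centring each gene, were DNAJB2 (0.0233), a J-domain co-chaperone, IL18BP (0.0268), a secreted inhibitor of interleukin-18, and MAN1A1 (0.0268), a mannosidase of the Golgi. CDC42EP1 itself deviated from its own mean by 0.0974 on average. DNAJB2 had values of 9.59, 7.98 and 8.93 in the siR-Con and 9.69, 10.4 and 11.5 in the siR-GAL3 libraries, so it shared with CDC42EP1 the lowest value in siR-Con replicate 2 and the highest in siR-GAL3 replicate 3. For CDC42EP4 they were S100B (0.0219), a calcium-binding protein of astrocytes that is also on the astrocyte list, MSI1 (0.0234), an RNA-binding protein of neural progenitors, and AP3B2 (0.0239), a subunit of the neuronal AP-3 adaptor. S100B had its lowest value, 70.3, in siR-GAL3 replicate 3, where CDC42EP4 was lowest too, and lay between 77.7 and 84.3 in the other libraries. For CDC42EP2 they were IDH2 (0.0278), a mitochondrial isocitrate dehydrogenase, DCT (0.0279), a dopachrome tautomerase, and TUBB2A (0.0304), a beta tubulin. DCT had values of 3.21, 3.54 and 3.57 in the siR-Con and 2.43, 3.59 and 2.93 in the siR-GAL3 libraries, with the lowest value in siR-GAL3 replicate 1 as for CDC42EP2. These genes were chosen for their likeness among 8495, so it has no test.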
